A study of Rattus norvegicus with 10 samples.

Results

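The genes described here carry, take up, store, release and oxidise iron, and were measured as mRNA in the milk whey and serum of lactating rats. They were selected by gene name, with the course of transferrin (Tf) already known from these arrays. The 8 genes were Tf, Tfrc, Fth1, Ftl1, Slc40a1, Slc11a2, Cp and Heph, covered by 19 of the 41012 non-control probes, a probe being a DNA strand of 60 bases fixed to the array. Of these, 14 probes carried a member name in the array annotation. The other 5 were annotated with the older name Ftl, and their transcript is listed as Ftl1 in the RefSeq gene table for the GRCr8 assembly. The question asked was whether any other iron gene shared the course of Tf, which was low on d 9 and high on d 2 and d 16.

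Whey was the part of milk left after fat, cells, casein and debris had been spun off, and was then filtered. It came from 3 dams of the inbred F344/N strain, each milked after oxytocin on d 2 (colostrum), d 9 and d 16 postpartum. The labels name no genetic change and no treatment for any group. The serum sample was 1 mixture of RNA from the 3 dams on d 21. Each of the 10 arrays, 9 of whey and 1 of serum, received cRNA from 100 ng of total RNA labelled with a single dye, so that a value gives a gene's share of the RNA and not its amount per volume of milk. The authors found little or no ribosomal RNA in whey. They propose that its RNA comes not from cells in the milk but from exosomes, small membrane vesicles. The cells that released it are not known from these arrays, and fewer releasing cells and less RNA per cell cannot be told apart.

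Transferrin binds ferric iron in extracellular fluids and delivers it to cells through the transferrin receptor. Inside the cell, ferritin made of heavy and light chains stores iron, ferroportin lets it out, and ferroxidases convert it to the form that transferrin binds. In rodents the lactating mammary epithelium secretes transferrin into milk, while in the rest of the body the liver is its main source.

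The number of arrays limits the precision of all values below. Between 10702 and 18014 probes were well above background on a whey array and 6172 on the serum array, the 75th percentile of the signal was 12.5 to 83.2 in whey and 4.11 in serum, and no non-control spot was saturated. The 12 markers of milk-secreting epithelium were all well above background on every whey array, with a summed linear signal of 1047010 to 1444410 against 8069 in serum. The 3 slides held d 2 whey of dams 1 and 2, d 2 whey of dam 3 with d 9 whey, and d 16 whey with serum. The slide of d 16 whey and serum was scanned on a different day from the rest. Any d 16 comparison is therefore also one between slides and scan days, and these cannot be told apart. All d 9 arrays shared a slide with only 1 d 2 array, so comparisons of d 9 with the other days are also largely between slides.

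The sequences below are those of probes on which the results turn, as given in the array files, 5′ to 3′ in the direction of the mRNA. The Tf probe is shown because a single probe carries the whole course of that gene. It lay on chromosome 8 of the rat build rn4, at 108219377 to 108219436 on the minus strand.
Tf A_44_P128147: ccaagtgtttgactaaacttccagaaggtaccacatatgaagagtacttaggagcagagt
The pair for the ferritin heavy chain is shown because both probes carry the name Fth1 but were placed at different loci of chromosome 1, 212431855 to 212431914 and 24186076 to 24186135, both on the plus strand. Capitals mark the bases that differ.
Fth1 A_44_P292634: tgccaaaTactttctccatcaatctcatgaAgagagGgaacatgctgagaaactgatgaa
Fth1 A_44_P351546: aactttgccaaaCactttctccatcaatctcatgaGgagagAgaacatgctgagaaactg
The 2 strands overlapped over 55 bases, of which 52 were identical, and counted from the 5′ end of A_44_P292634 the differences were T8C, A31G and G37A. Transcripts of either locus could therefore bind both probes, and their signals cannot be assigned to 1 locus. A pair of ferritin light chain probes is shown because the files placed both at the same position of chromosome 1, 95929543 to 95929804 on the minus strand, although they differed at 4 of 60 bases (C7G, G9A, C10G and A11G, counted from the 5′ end of A_42_P541034).
Ftl1 A_42_P541034: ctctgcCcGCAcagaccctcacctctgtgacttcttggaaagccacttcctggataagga
Ftl1 A_44_P149190: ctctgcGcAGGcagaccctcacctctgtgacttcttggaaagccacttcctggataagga
The ferroportin probe below belongs to the only other member gene with changes past the test, and lay at 44980771 to 44981749 of chromosome 9, on the minus strand.
Slc40a1 A_43_P13162: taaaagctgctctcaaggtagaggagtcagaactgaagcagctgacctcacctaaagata
This probe and both light chain probes covered 979 and 262 bases of genome with 60 bases of sequence, so that each was placed in more than 1 block. Exon and UTR annotation of rn4 was not used here.

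Tf, the iron carrier itself, changed most of all members, and its values are given as a description only, because its course led to the choice of these genes. On the log2 scale of the quantile-normalised signal, Tf was 14.71, 14.46 and 13.70 in d 2 whey of dams 1, 2 and 3. It was 9.92, 9.89 and 10.29 on d 9 and 15.63, 15.14 and 15.66 on d 16. The 3 days did not overlap in any pair, and every dam was lowest on d 9 and highest on d 16. The share of all probes without such overlap is not given, so a lack of overlap is a description only, here and for the genes below. The mean fell by 4.26 from d 2 (14.29 ± 0.53, SD, n = 3) to d 9 (10.03 ± 0.22) and rose by 5.44 to d 16 (15.48 ± 0.29), a 43.5-fold increase. With slide as a block, which rests on the 1 d 2 array that shared a slide with d 9, the change from d 2 to d 9 was -3.66. Markers of hepatocytes, the other main source of Tf, were near background in whey, where 0 or 1 of 10 was well above background on an array and their summed signal was 23.7 to 35.0, against 671 in serum.

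The serum mixture had a Tf signal of 9.48, below all 9 whey arrays, and the whey mean was 13.8-fold higher. This difference is from 1 serum array and has no test. The d 9 arrays came within 0.41 to 0.81 of the serum value, whereas the d 2 arrays were 4.22 to 5.23 above it and the d 16 arrays 5.66 to 6.18.

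**Figure D1:**
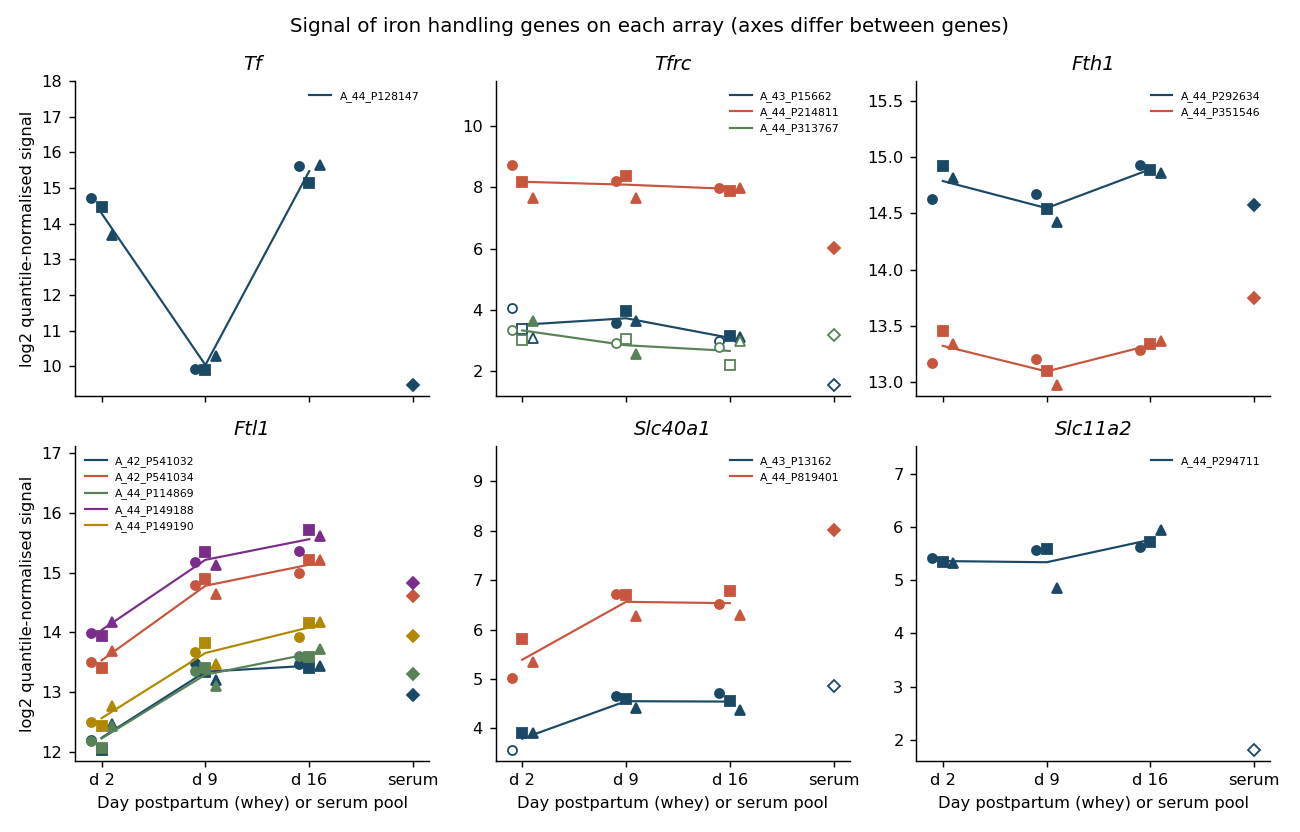
Log2 quantile-normalised signal (y axis, scaled separately for each gene) of 6 iron genes on each array, by day of whey or in serum. Circles, squares and triangles are dams 1, 2 and 3, diamonds the serum pool, filled symbols well above background, and lines join the day means. Tf is lowest on d 9 in every dam, Ftl1 and Slc40a1 are lowest on d 2, and Fth1 spans 0.51 and 0.48 in whey on its 2 probes.

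The transferrin receptor gene Tfrc, whose product takes iron-loaded transferrin into cells, had no change between days that passed the test. The probe that was well above background on all 10 arrays (A_44_P214811) was 8.73, 8.16 and 7.63 in d 2 whey of dams 1, 2 and 3, 8.21, 8.37 and 7.66 on d 9, and 7.98, 7.87 and 7.99 on d 16. The 3 days overlapped. The change from d 2 to d 9 was -0.09 ± 0.29 (SE) with an adjusted p = 0.843, and from d 9 to d 16 it was -0.14 ± 0.29 with an adjusted p = 0.835. These and all adjusted p-values below are from limma over the 16845 probes detected in whey, adjusted by the Benjamini-Hochberg method, and a call needs a value under 0.05. The spread among dams on d 2 (SD 0.55) was larger than either change. A second Tfrc probe (A_43_P15662) was well above background on 5 whey arrays, none of them d 2, and its d 9 mean was at least 1.15-fold above the level measurable on d 2 (adjusted p = 0.570). The third (A_44_P313767) was well above background on 2 whey arrays and was not tested. Serum gave 6.02 for A_44_P214811, 4.14-fold below the whey mean of 8.07, and the other 2 were not well above background there. That value comes from 1 array and is close to 5.84, the lowest signal well above background on it, so the fold is uncertain.

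The ferritin heavy chain gene Fth1, which encodes the subunit that oxidises iron on its way into the ferritin shell, had the course nearest to that of Tf among the members, but at a far smaller size. Its probe A_44_P292634 was 14.63, 14.92 and 14.81 in d 2 whey, 14.68, 14.54 and 14.43 on d 9, and 14.93, 14.88 and 14.86 on d 16. All 3 dams were higher on d 16 than on d 9 without overlap between these days, while dam 1 was not lower on d 9 than on d 2. The change was -0.24 ± 0.12 from d 2 to d 9 (adjusted p = 0.207) and 0.35 ± 0.12 from d 9 to d 16 (adjusted p = 0.194), and neither passed the test. The second probe, A_44_P351546, changed by -0.23 ± 0.12 and 0.23 ± 0.12, with adjusted p = 0.223 and 0.341. Over the 9 whey arrays the Pearson correlation with Tf was 0.80 for the first probe and 0.72 for the second. These ranked 72 and 183 among the 7247 named probes compared, a description in which all probes share the same arrays and normalisation. Serum was 14.58 and 13.75 on the 2 probes, against whey means of 14.74 and 13.25.

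The light chain gene Ftl1, whose product helps iron form a core inside the shell, rose from d 2 to d 9 and stayed high. The probe A_44_P149188 was 13.99, 13.94 and 14.18 in d 2 whey of dams 1, 2 and 3. It was 15.18, 15.35 and 15.12 on d 9 and 15.36, 15.72 and 15.61 on d 16. Every d 9 and d 16 array was above every d 2 array on each of the 5 probes, with no share of all probes given for such separation. From d 2 to d 9 the 5 probes rose by between 1.07 ± 0.14 (A_44_P114869, adjusted p = 0.00443) and 1.25 ± 0.13 (A_42_P541034, adjusted p = 0.00234), that is by 2.10-fold to 2.38-fold. From d 2 to d 16 they rose by between 1.21 ± 0.14 (A_42_P541032, adjusted p = 0.00129) and 1.61 ± 0.13 (A_42_P541034, adjusted p = 0.000418).

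The light chain probes read the same gene, and their pairwise correlations over the whey arrays were 0.96 to 1.00. The further step from d 9 to d 16 was 0.10 ± 0.14 to 0.43 ± 0.15 and passed the test on none of the 5, with adjusted p between 0.192 and 0.740. Their correlations with Tf were -0.25 to -0.06. Serum values of 12.95 to 14.83 lay between the d 2 and d 16 means of the same probe in all 5 cases. With slide as a block, the rise to d 9 was 0.87 to 1.10, and it passed the test on A_42_P541034 (adjusted p = 0.0324) and A_44_P149188 (adjusted p = 0.0466) but not on the other 3, with adjusted p of 0.051, 0.0587 and 0.0708.

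Ferroportin (Slc40a1), the channel through which iron leaves cells, rose together with Ftl1 from d 2 to d 9. The probe A_44_P819401 was 5.01, 5.80 and 5.35 in d 2 whey, 6.71, 6.69 and 6.28 on d 9, and 6.52, 6.78 and 6.30 on d 16. All arrays of both later days lay above all d 2 arrays. The change was 1.17 ± 0.23 by d 9 (2.25-fold, adjusted p = 0.0153) and 1.15 ± 0.23 by d 16 (adjusted p = 0.0103), while that between d 9 and d 16 was -0.03 ± 0.23 (adjusted p = 0.966). The second probe (A_43_P13162) rose by 0.76 ± 0.15 (adjusted p = 0.0153) and 0.75 ± 0.15 (adjusted p = 0.00981), and was well above background on 8 of the 9 whey arrays. Without d 9 whey of dam 2 the adjusted p-values of the rise to d 9 became 0.0589 and 0.0569, and with slide as a block 0.128 and 0.175. The Tukey-Kramer test did not call A_44_P819401 on d 9 or d 16 against d 2, and with normexp background correction the rises to d 9 shrank to 0.54 and 0.18, still called in limma. Slc40a1 was higher in serum (8.02 on A_44_P819401) than on any whey array, by 3.63-fold over the whey mean.

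Macrophages and developing red cells express ferritin and ferroportin, and the summed linear signals of the markers of these and other blood cells are given beside the rise of both genes. Macrophage markers (9 measured of 10 listed) summed to 326 to 425 on d 2, 218 to 525 on d 9, 681 to 743 on d 16 and 2054 in serum. At most 5 of them were well above background on a whey array, and their courses differed. Cd14 was 8.11, 6.57 and 6.23 on d 2, d 9 and d 16 as day means, whereas C1qa was 3.80, 5.85 and 7.11, C1qb 5.08, 7.30 and 8.77, and Cd68 3.14, 4.44 and 5.46. On d 2, however, Cd68 was well above background on 0 of 3 arrays and C1qa on 1, so that their d 2 means are largely background values. The other markers measured were well above background on at most 1 array of any day. Erythroid markers (4 measured of 9 listed) summed to 63.1 to 84.4, 95.6 to 143 and 189 to 297 in the 3 days of whey, with 1 or 2 well above background, and to 306153 in serum. Lymphocyte markers summed to 60.2 to 87.4, 78.1 to 133 and 143 to 199.6, and to 1614 in serum. The part of these cells in the rise of Ftl1 and Slc40a1 was not tested.

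Slc11a2, which encodes the divalent metal transporter that moves iron out of endosomes and across the gut surface, was 5.42, 5.34 and 5.32 in d 2 whey, 5.57, 5.59 and 4.86 on d 9, and 5.62, 5.71 and 5.95 on d 16. Every d 16 array was above the arrays of both other days, but the d 9 value of dam 3 lay apart from those of dams 1 and 2. Neither the change to d 9 (-0.02 ± 0.21, adjusted p = 0.952) nor that from d 2 to d 16 (0.40 ± 0.21, adjusted p = 0.190) passed the test. Without d 9 whey of dam 3 the latter did, with an adjusted p = 0.0472. The probe was not well above background in serum, where the lowest signal well above background was 5.84, so that the whey mean of 5.49 would not have been measurable on that array and no fold is given.

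The ferroxidases were at or near background. Of the 4 probes for ceruloplasmin (Cp), the copper-containing ferroxidase of plasma, 3 were not well above background on any of the 10 arrays. The fourth (A_44_P139939) was well above background on 3 whey arrays, 1 on each day, with whey values of 2.27 to 3.17. One of the 3 dim Cp probes (A_44_P459031) was placed on the opposite strand to the others. The probe for hephaestin (Heph), the membrane-bound ferroxidase, was not well above background on any array. None of these 5 probes was tested.

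In all, 13 of the 19 probes were tested, Tf among them, and the other 12 are counted here. Between d 2 and d 9, 7 of the 12 were higher (5 of Ftl1 and both tested probes of Slc40a1) and 0 were lower, beside 11.3% higher and 6.36% lower of all probes tested. The same 7 were higher and 0 were lower on d 16 than on d 2, beside 16.1% and 12.4%. Between d 9 and d 16, 0 were called in either direction by limma, beside 0.564% higher and 0.855% lower of all probes. At an unadjusted p under 0.05 there were 5 higher, of Ftl1 and Fth1, and 1 lower, of Tfrc. No share of all probes is given at that looser threshold. The median change of the 12 was 0.91, 0.95 and 0.29 in the 3 comparisons, beside 0.11, 0.04 and -0.06 over all probes tested. The comparisons share arrays, and probes to 1 gene are not independent, so that the counts of calls stand for 2 genes.

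**Figure D2:**
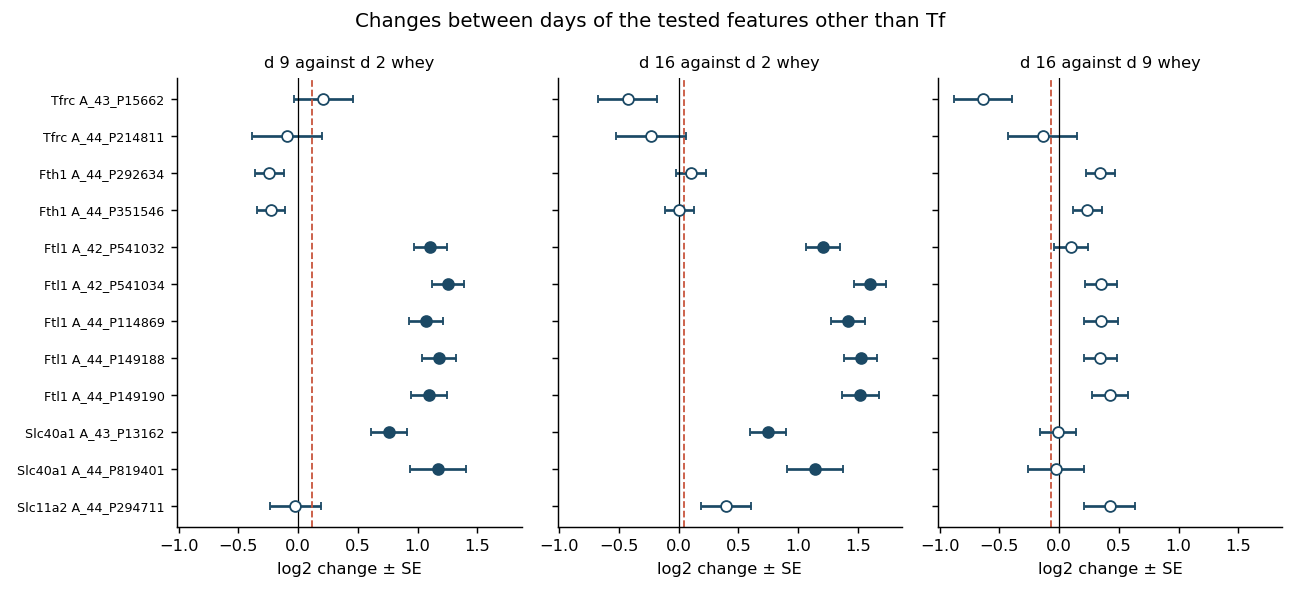
Log2 change ± SE (x axis) of the 12 tested probes other than Tf in each comparison of days, from limma over 9 whey arrays. Filled points passed an adjusted p of 0.05, and the dashed line is the median of all probes tested. Ftl1 and Slc40a1 are filled against d 2, and no point is filled between d 9 and d 16.

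The course of Tf was then put to each iron gene as a single value, the d 9 mean less the mean of d 2 and d 16. Tf had -4.85. Of the 12 other member probes, 0 were called in either direction, beside 0.867% higher and 0.724% lower of all probes tested. At an unadjusted p under 0.05 there were 7 higher, all of Ftl1 and Slc40a1, and 1 lower. No share of all probes is given at that looser threshold, and the percentages above do not apply to it. The 1 lower was Fth1 A_44_P292634, with -0.29 ± 0.11 and an adjusted p = 0.185. The 5 Ftl1 probes had 0.33 to 0.50, opposite in sign to Tf.

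Probes that were lower on d 9 than on both other days, each at an adjusted p under 0.05, numbered 20 of 16845 (0.119%). They included Tf, which these data had singled out, and no other gene of the iron lists. Ordered by the smaller of the fall to d 9 and the rise to d 16, the first 5 after Tf were Podxl, Mgst2, Car2, Ccnd2 and Wfdc2, with d 9 departures from the mean of the other days of -2.19, -1.72, -1.65, -1.51 and -2.00. None of the 52 iron gene probes tested besides Tf passed both comparisons under any of the 20 settings of the fit, and at an unadjusted p the count was also 0. Beside a share of 0.119% over all probes, a count of 0 among 52 does not set the iron genes apart. Of all probes, 0 passed both comparisons under the Tukey-Kramer test and 1 under spike-in scaling, so these settings could show little. The count of 20 probes itself rested on single arrays. It became 4 without d 9 whey of dam 2, without d 9 whey of dam 3 or without d 16 whey of dam 3, 6 and 7 without d 16 whey of dams 1 and 2, and 8 and 13 without d 2 whey of dams 2 and 3.

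The genes whose values over the 9 whey arrays correlated most with those of Tf were Bik (r = 0.96), Dusp18 (0.94), Apob48r (0.94), Plac8 (0.94) and Wfdc2 (0.93), at 1 probe a gene. They were taken from 7247 probes with a gene name that were well above background on all 9. Bik encodes a protein that promotes apoptosis, and was 6.55 ± 0.16, 5.31 ± 0.19 and 6.71 ± 0.25 on d 2, d 9 and d 16 (SD, n = 3). Wfdc2, which encodes a secreted protease inhibitor of epithelia, was 6.05 ± 0.31, 4.66 ± 0.27 and 7.27 ± 0.27. Their changes from d 2 to d 9 were -1.24 and -1.39, against -4.26 for Tf. Slc11a2 had a correlation of 0.45 with Tf and Slc40a1 of -0.32.

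**Figure D3:**
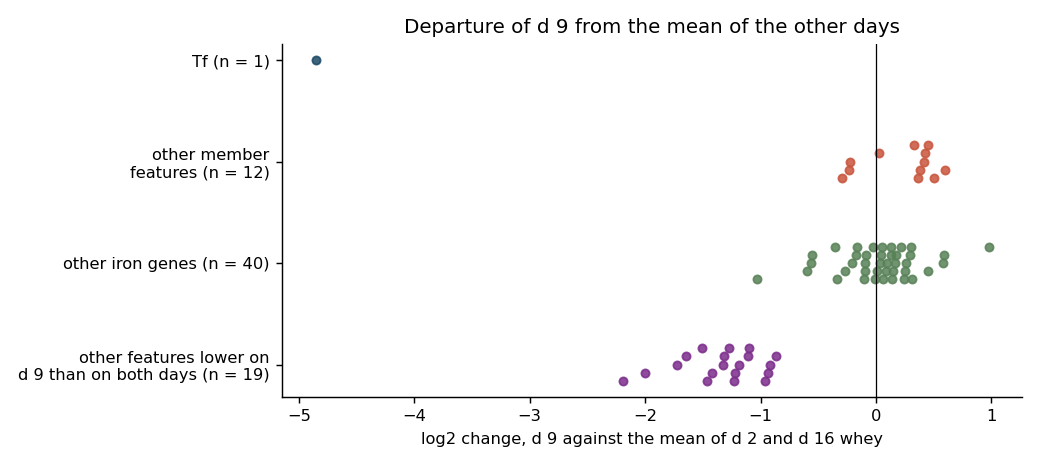
Log2 change of d 9 against the mean of d 2 and d 16 whey (x axis) for Tf, the 12 other member probes tested, the 40 other iron genes tested and the 19 other probes called lower on d 9 than on both days. Each point is 1 probe. Tf is at -4.85, no other iron gene is below -1.03, and the 12 member probes lie between -0.29 and 0.60.

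Because arrays can be scaled to each other in several ways, the members were also compared within an array on the unnormalised processed signal, where no scaling enters. The mean of the 5 Ftl1 probes less that of the 2 Fth1 probes was -1.01, -1.39 and -0.94 in d 2 whey, 0.16, 0.34 and 0.13 on d 9, and 0.16, 0.32 and 0.33 on d 16. The d 2 arrays were apart from all others, and the later days overlapped. Signals of different probes have no common scale, so that only the changes are of use. The balance of light over heavy chain rose by 1.32 ± 0.16 (SE, n = 3) from d 2 to d 9 and by 1.38 ± 0.15 from d 2 to d 16. An exact two-sided permutation test gave p = 0.1 for each rise, the smallest that 3 arrays against 3 can give. The same exact permutation test gave p = 0.6 between d 9 and d 16. These values are unadjusted over the 3 pairs of days. The test took the arrays as independent, although the same 3 dams were sampled on each day. The difference was also added after the courses of Ftl1 and Fth1 had been seen. The test therefore cannot decide whether the balance changed, and the differences are a description. The shift was seen in 3 of 3 dams.

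Measured against Fth1 in the same way, Tf was 0.82, 0.30 and -0.39 in d 2 whey, -3.98, -3.86 and -3.27 on d 9, and 1.53, 0.99 and 1.57 on d 16. The mean change was -3.95 to d 9 and 5.07 from d 9 to d 16. These are the values of Tf that led to its choice, on another scale, and are no separate support for its course.

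**Figure D4:**
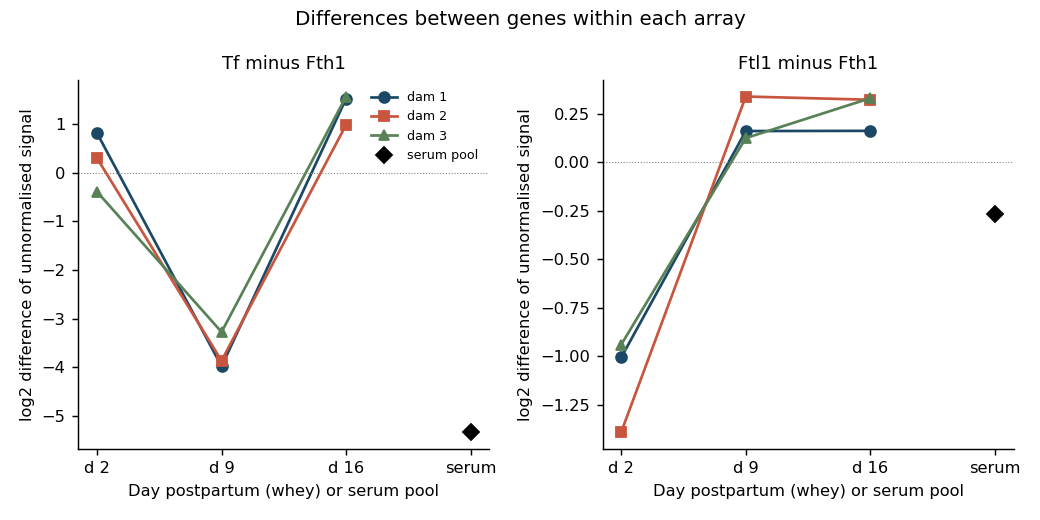
Log2 difference between genes within each array on the unnormalised signal (y axis), as Tf less the mean of 2 Fth1 probes (left) and the mean of 5 Ftl1 probes less that of Fth1 (right), by day of whey or in serum. Lines join the arrays of 1 dam. Tf drops on d 9 in all 3 dams, while Ftl1 less Fth1 goes from between -1.39 and -0.94 on d 2 to between 0.13 and 0.34 on the later days.

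Scaling to spike-in control RNA moved all genes. It shifted the median change of all probes tested to 1.52 for d 9 against d 2, 0.60 for d 16 against d 2 and -0.91 for d 16 against d 9. On this scale Tf changed by -2.74 on d 9 against d 2 and by 4.52 on d 16 against d 9, and the 5 Ftl1 probes rose by 2.47 to 2.60 to d 9, which is 0.95 to 1.08 above the median. The small Fth1 changes turned in sign, to 1.16 and 1.27 for d 9 against d 2 with adjusted p = 0.137 and 0.108. All 7 calls of Ftl1 and Slc40a1 on d 9 against d 2 held under this scaling, but on d 16 against d 2 only Ftl1 A_42_P541034 did, with 2.21 and an adjusted p = 0.0424. Of all probes tested, 41.2% were called on d 9 against d 2 and 4.67% on d 16 against d 2 under this scaling.

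Of 69 other genes of iron handling, 66 had a probe and 40 were tested. On d 9 against d 2, 5 were higher and 4 lower, 22.5% of those tested, and on d 16 against d 2, 7 were higher and 7 lower, 35%. All probes together gave 11.3% and 6.36% in the first comparison and 16.1% and 12.4% in the second, as above. Only Alad was called between d 9 and d 16, and 0 of 40 were called for d 9 against the mean of the other days. In the latter comparison 3 were higher and 4 lower at an unadjusted p under 0.05, with no share of all probes given at that threshold. The count of 9 on d 9 against d 2 fell to 1 without d 9 whey of dam 2, to 3 without d 2 whey of dam 2, to 5 without d 9 whey of dam 1 and to 1 with slide as a block. Calls over all probes tested fell in the same settings, from 2969 to 1267, 1557, 2386 and 498. The count of 14 fell to 9 without d 2 whey of dam 2 or d 16 whey of dams 1 or 2, where calls over all probes fell from 4800 to 3275, 3613 and 3113. With spike-in scaling, 5 of the falls below turned in sign and were not called, to 0.58 for Slc22a17, 0.66 for Aco1, 0.86 for Alad and 1.02 for Hmox2 on d 9 against d 2, and to 0.072 for Hif1a on d 16 against d 2. On d 16 against d 2 this scaling left 2 of the other iron genes called, Steap1 and Abcg2. All other calls named below for that comparison were lost under it, and calls over all probes fell from 4800 to 786.

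Of 15 genes of iron uptake and release, 5 were tested. Steap1 and Steap4, of a family of membrane metalloreductases, rose from 6.64 ± 0.32 and 5.17 ± 0.48 on d 2 to 8.18 ± 0.19 and 6.35 ± 0.07 on d 16 (SD, n = 3, adjusted p = 0.00497 and 0.0249). The call of Steap1 was kept under 19 of 19 alternatives, but that of Steap4 depended on the processing and was kept under 11 of 19. Slc22a17, a receptor for the siderophore-binding protein lipocalin 2, fell by 0.89 from d 2 to d 9 (adjusted p = 0.0219), though not with spike-in scaling. The second transferrin receptor Tfr2 was not well above background on any array.

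Of 6 genes of iron storage and intracellular carriers, 4 were tested and 0 were called on d 9 against d 2. On d 16 the iron chaperone gene Pcbp2 was higher than on d 2 by 0.65 ± 0.13 (SE, adjusted p = 0.00977). Ncoa4, which encodes the receptor that takes ferritin to the lysosome, was lower by 1.02 ± 0.24 on the log2 scale (adjusted p = 0.0182).

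Of 16 genes of iron sensing and systemic regulation, 9 were tested. Aco1, whose product is iron regulatory protein 1, was 10.53 ± 0.22 on d 2 (SD, n = 3), 9.78 ± 0.22 on d 9 and 9.56 ± 0.12 on d 16, lower on both later days (adjusted p = 0.0216 and 0.0055), a direction that spike-in scaling turned for d 9. Bmpr1a and Smad4, of the BMP pathway that controls hepcidin in the liver, rose by 0.62 and 0.84 to d 9 (adjusted p = 0.0400 and 0.0297) and were also called on d 16. These calls depended on the processing. Bmpr1a was called under 9 of 20 alternatives on d 9 and 12 of 19 on d 16, and Smad4 under 8 of 19 and 9 of 18. Smad4 was well above background on only 2 of the d 2 arrays. Hif1a fell by 0.50 to d 16 (adjusted p = 0.0349), a sign that spike-in scaling turned, and was called under 10 of 19 alternatives. The hepcidin gene Hamp was not well above background on any array.

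The haem list was the largest, with 14 of 19 genes tested. Several of its enzymes were called lower on later days, and Cpox was the only enzyme called higher. Alad was 12.90 ± 0.07, 12.22 ± 0.19 and 11.47 ± 0.11 on d 2, d 9 and d 16 (SD, n = 3), with adjusted p = 0.0140 on d 9 against d 2 (a fall that spike-in scaling turned in sign), 0.00057 on d 16 against d 2 and 0.0449 between d 9 and d 16. The last call was lost without any 1 of the 9 arrays and also with the dam as a block. Fech, whose product inserts iron into the haem ring, fell by 0.77 by d 16 (adjusted p = 0.0125), a call lost with spike-in scaling. Cpox rose by 0.70 by d 9 (adjusted p = 0.0219) but was not called on d 16 against d 2 (0.23, adjusted p = 0.302). Of the breakdown enzymes, Hmox2 fell by 0.48 by d 9 (adjusted p = 0.0306, turned in sign by spike-in scaling) and was called under 11 of 20 alternatives. Blvra fell by 1.00 by d 16 (adjusted p = 0.00935), a call lost with spike-in scaling.

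Abcg2, a transporter of porphyrins that also carries riboflavin into milk, rose from 7.86 ± 0.44 on d 2 to 9.03 ± 0.05 on d 9 and 9.56 ± 0.16 on d 16 (SD, n = 3, adjusted p = 0.0117 and 0.00170). Of 11 genes of mitochondrial iron and iron-sulphur clusters, 7 were tested, and Glrx5 alone was called, higher by 0.51 on d 9 and 0.50 on d 16 than on d 2 (adjusted p = 0.0216 and 0.0154).

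Of the secreted iron-binding defence proteins, lactoferrin (Ltf) was not well above background on any array. Lcn2, the gene for lipocalin 2, was 6.66 on d 2, 6.16 on d 9 and 7.71 on d 16 as day means, and its d 9 departure of -1.03 ± 0.29 (SE) was the largest downward of the 40 genes (adjusted p = 0.121). Its change of 1.55 from d 9 to d 16 did not pass the test either (adjusted p = 0.0767), but passed it under 4 alternatives, with adjusted p of 0.031 to 0.048, while its change of -0.50 from d 2 to d 9 did not (adjusted p = 0.333). With spike-in scaling the departure was 0.14. Neutrophil markers (8 measured of 9 listed) summed to 50.9 to 63.6, 24.9 to 194 and 44.3 to 417 over the same days, and to 9992 in serum, and their part in the Lcn2 values was not tested.

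Between whey and serum, whey was over serum by more than 4-fold at 27.3% of the 21145 probes well above background in either fluid, and serum over whey at 15.7%. Of the member probes measured well above background in each fluid, Tf and Tfrc A_44_P214811 passed 4-fold, both higher in whey, and 0 passed 4-fold in the other direction. The shares above cover a wider set, probes above background in either fluid, and none is given for probes above background in both. They are therefore no measure for the member count, in which Tfrc passed 4-fold with a serum value near background. The 7 ferritin probes differed by at most 1.42-fold between the whey mean and serum.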

How the data were processed

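The authors hybridised Cy3-labelled cRNA to 1-colour Agilent rat arrays and read them with Feature Extraction 9.5.3.1. The deposited per-array files hold background-corrected processed signal intensities, flags and probe sequences. A deposited table of quantile-normalised values was not used, since its 10 columns match no sample label. Here outlier spots were left out, spots of a probe averaged, intensities taken to log2 and quantile normalised over 10 arrays. A probe was tested where it was detected in whey (well above background, signal over 20) with a value on every array. Groups and dams came from the sample titles. Days were compared in R 4.3.3 with limma 3.58.1 (lmFit, contrasts, eBayes) with Benjamini-Hochberg adjustment, after a test on simulated data. Named were all member probes, other iron genes past adjusted p 0.05, defining genes at background and the 5 genes most like Tf, except for 1 result that is not reported here. Members and gene lists were chosen with earlier results of these data known, and the within-array differences were added after the data were examined. The same dams were sampled on each day. Deviations from day means correlated between days by 0.12 to 0.22 for dam 1, -0.02 to 0.12 for dam 2 and 0.02 to 0.11 for dam 3. Alternatives covered scaling, background, filters, dam, slide, the Tukey-Kramer test named in the methods and leaving out each array.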

Additional observations from a re-analysis of the deposited data

How the results depend on the processing

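With the dam as a replicate block, to respect the pairing of arrays by dam, 0 calls of member probes changed, and calls of the other iron genes went from 9 to 8 on d 9 against d 2, from 14 to 16 on d 16 against d 2 and from 1 to 0 on d 16 against d 9. Calls over all probes went from 2969 to 3096, from 4800 to 4849 and from 239 to 117. Spike-in scaling turned the sign of the called falls of Slc22a17, Aco1, Alad and Hmox2 on d 9 against d 2 (0.58, 0.66, 0.86 and 1.02) and of Hif1a on d 16 against d 2 (0.072). The called changes of Ftl1 and Slc40a1 kept their direction throughout, but their number depended on scaling and slide: 2 of 7 passed on d 9 against d 2 with slide as a fixed block, and 1 of 7 on d 16 against d 2 with spike-in scaling.

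Spike-in scaling also gave 14, 2 and 0 calls among the other iron genes on d 9 against d 2, d 16 against d 2 and d 16 against d 9, beside 6935, 786 and 155 of all 16845 probes (2969, 4800 and 239 with quantile normalisation), and 1 probe lower on d 9 than on both other days. Slide as a fixed block gave 1 call among the other iron genes on d 9 against d 2, beside 498 of all probes. The Tukey-Kramer test gave 4, 9 and 0 in the 3 comparisons, beside 1297, 2687 and 0 of all probes. It gave 0 probes lower on d 9 than on both days. That last number was 65 with normexp background, 13 with no filter on dim probes, 62 with the filter that asks for a signal well above background on each of the 9 whey arrays, 58 with a minimum signal of 100 and 63 with slide as a random block.

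For d 16 against d 9, normexp background gave 1 member call (Ftl1 A_44_P149188, 0.59) and 4 other iron gene calls, and the 9-array filter, the minimum of 100 and the random slide block gave 3 each. Calls over all probes were 855, 538, 618 and 677 under these 4 settings, against 239. For d 9 against the mean of the other days, member calls were 3 with normexp, 2 with the 9-array filter, 2 with the minimum of 100 and 1 with the random slide block, all of Ftl1 and all above 0, while other iron gene calls were 2, 1 and 2 under the first 3. Hmox2 was the only one of these lower on d 9, at -0.25 with normexp and -0.35 with the minimum of 100. In this comparison calls over all probes were 966, 774, 813 and 686 under the same 4 settings, against 268. The cause of these differences was not tested, beyond the smaller number of probes tested under both filters, 9820 and 9603.

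Leaving out single arrays gave 5 to 7 member calls on d 9 against d 2, 7 to 8 on d 16 against d 2, and 0 in the other 2 comparisons. Calls of other iron genes ranged over 1 to 9, 9 to 17 and 0 to 0 in the 3 pairs of days. Calls over all probes ranged over 1267 to 2720, 2744 to 4885 and 22 to 259, and probes lower on d 9 than on both days over 4 to 25. Tf changed between d 2 and d 9 by -2.74 with spike-in scaling and -3.66 within slide 2, against -4.26. The Tukey-Kramer test covers pairs of days alone, and slide as a fixed block could be fitted for d 9 against d 2 alone. Over the 7 added alternatives, Ftl1 less Fth1 within arrays changed by 1.18 to 1.41 on d 9 against d 2, and Tf less Fth1 by -4.27 to -3.66. Dim probes of Tfrc, Slc11a2, Cp and Heph were limited by signal over background, most of all in serum.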
